A study of Homo sapiens with 12 samples.

Results

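The untreated state of CCRF-CEM, a human T lymphoblast line established from acute lymphoblastic leukaemia, was described from the 3 arrays titled non-treated, out of 12 arrays in the series. The genes were the probe sets carrying exactly 1 gene symbol, the brightest over the untreated arrays standing for a gene with several, which gave 14232 genes. They were ranked by their mean log2 level and by their standard deviation (SD) among the 3 arrays. The other 9 arrays came from the same line after 3 h with AB61, a 7-thienyl derivative of 7-deazaadenosine, at 250 nM, with tubercidin, the parent 7-deazaadenosine, at 550 nM, or with actinomycin D, a DNA-binding inhibitor of transcription, at 1 nM, 3 arrays an agent. Each dose was 5 times the IC50. All cultures grew in RPMI medium with 10% fetal calf serum, and 200 ng of Trizol-extracted total RNA was hybridised per array. No vehicle was described for the untreated cultures. The titles number the biological replicates of each group from 1 to 3, and nothing in the labels says whether cultures of the same number were grown or processed together. Where p-values are given, they measure the spread between these cultures of 1 line.

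T cell leukaemias arise from precursors that were halted on their way through the thymus, and they keep parts of the programme of the stage at which they stopped. Developing thymocytes assemble the T cell receptor on a scaffold of CD3 chains, pass through a phase in which CD1 molecules and the RAG recombinase are made, and then choose between the CD4 and CD8 co-receptors. Immediate early genes such as EGR1 are switched on within minutes of a stimulus without new protein synthesis, and their short-lived messages make them among the most changeable transcripts of lymphocytes. Cells short of oxygen or packed densely raise glycolytic enzymes and other targets of the hypoxia-inducible factors.

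The levels are log2 values after RMA, a procedure that corrects background, gives all arrays a like distribution and summarises the probes of a gene. Each gene was measured by probes of its own, so a rank on the array is not a rank of mRNA amounts. The median level was 6.63, 6.68 and 6.59 on untreated replicates 1, 2 and 3. Replicates 1 and 2 were the most alike, with a Pearson correlation across genes of 0.994, and 35 genes differed between them by 2-fold or more. Replicate 3 differed by that much in 83 genes from replicate 1 and in 61 genes from replicate 2. As a mark of what silent genes read here, 273 olfactory receptor, taste receptor and hair keratin-associated genes were taken, a choice made after the data were seen. Their median was 4.15 and their 95th percentile 6.07. Of all genes, 8642 (60.7%) had a mean above 6.07.

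The top of the ranking was made up of glycolytic enzymes, histones, ribosomal proteins and the cytoskeleton. LDHA, the lactate dehydrogenase subunit that turns pyruvate into lactate, was first, with 13.40, 13.46 and 13.45 on the 3 arrays. PGK1, an ATP-producing enzyme of glycolysis, had a mean of 12.95 ± 0.18 (SD, n = 3), and ENO1, the main enolase, stood at 12.53 ± 0.07. Of the 25 highest genes, 10 were histone genes, led by the linker histone H1-4 at 13.09 ± 0.06 and by H3C3 at 12.85 ± 0.05. Members of this family are nearly identical in sequence, so their single levels are uncertain. The chaperone HSPA8 read 12.98 ± 0.13, gamma actin (ACTG1) 12.86 ± 0.10, and the ribosomal proteins RPL8 and RPL18 13.24 ± 0.08 and 12.84 ± 0.07.

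Lineage genes reached into the same range. CD3D, a chain of the T cell receptor complex, closed the list of 25 with 12.44, 12.48 and 12.26, a mean of 12.396, and the next gene in the ranking had 12.391. TSPAN7, a tetraspanin membrane protein, stood at 12.74 ± 0.05. ND5, a mitochondrially encoded subunit of complex I, read 12.51, 12.57 and 12.95, an SD of 0.24. The largest SD among the 25 was 0.26, that of PA2G4, a proliferation-associated RNA-binding protein.

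The T cell markers of the line were high, as its label has it. Of 16 T cell receptor and co-receptor genes, 13 had a single-symbol probe set, with a median level of 9.25 against 6.63 for all genes. Above the silent mark of 6.07 stood 12 of the 13, and 7 of the 13 lay above 9.21, the 90th percentile of all genes. The signalling chains CD3D (12.40 ± 0.12), CD3E (11.54 ± 0.06) and CD3G (10.95 ± 0.08) led, and CD247, the zeta chain, read 8.83 ± 0.13. CD7, the earliest T lineage surface marker, and CD5, a brake on receptor signalling, followed at 10.19 ± 0.15 and 10.09 ± 0.11.

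The co-receptors were unequal. CD4, the co-receptor for class II MHC, read 9.32, 9.51 and 10.06, the widest spread in the list (SD 0.38), with replicate 3 the highest. CD8A read 6.40, 6.46 and 6.34, near the median gene, and CD8B read 5.25, 5.36 and 5.25, under the silent mark. PTCRA, which encodes the surrogate alpha chain of the pre-T cell receptor, stood at 7.04 ± 0.19. The constant-region genes TRAC, TRBC1 and TRBC2 were not among the single-symbol probe sets and are not analysed here.

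Signalling genes downstream of the receptor were present as a group. Of 18 listed, 14 were measured, 13 of them above the silent mark, with a median of 9.05. RHOH, a haematopoietic GTPase needed for ZAP70 activation, was the highest at 11.21 ± 0.20, and the phosphatase PTPRC (CD45) read 10.80 ± 0.10. LCK, the kinase that starts receptor signalling, had 9.97, 10.08 and 9.62, and ZAP70, the kinase it activates, 8.93, 8.81 and 8.57. The Tec kinase TXK was the only measured member under the mark, at 5.79 ± 0.10.

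Genes that mark stages in the thymus were split. CD38 (10.49 ± 0.14), CD1E (10.24 ± 0.08), RAG2 (8.60 ± 0.29) and CD1A (8.44 ± 0.06) were high, the CD1 genes encoding lipid-presenting molecules of cortical thymocytes and RAG2 a subunit of the recombinase. CD34, a progenitor marker, read 5.68 ± 0.15, RAG1, the catalytic partner of RAG2, 5.56 ± 0.25, the template-independent polymerase DNTT 5.15 ± 0.13, and CD1B 3.31 ± 0.15. In all, 8 of the 12 measured members lay above the silent mark. IL7R, the interleukin 7 receptor on which early thymocytes depend, read 7.64, 7.01 and 6.82 and had the largest SD of the list, 0.43.

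**Figure D1:**
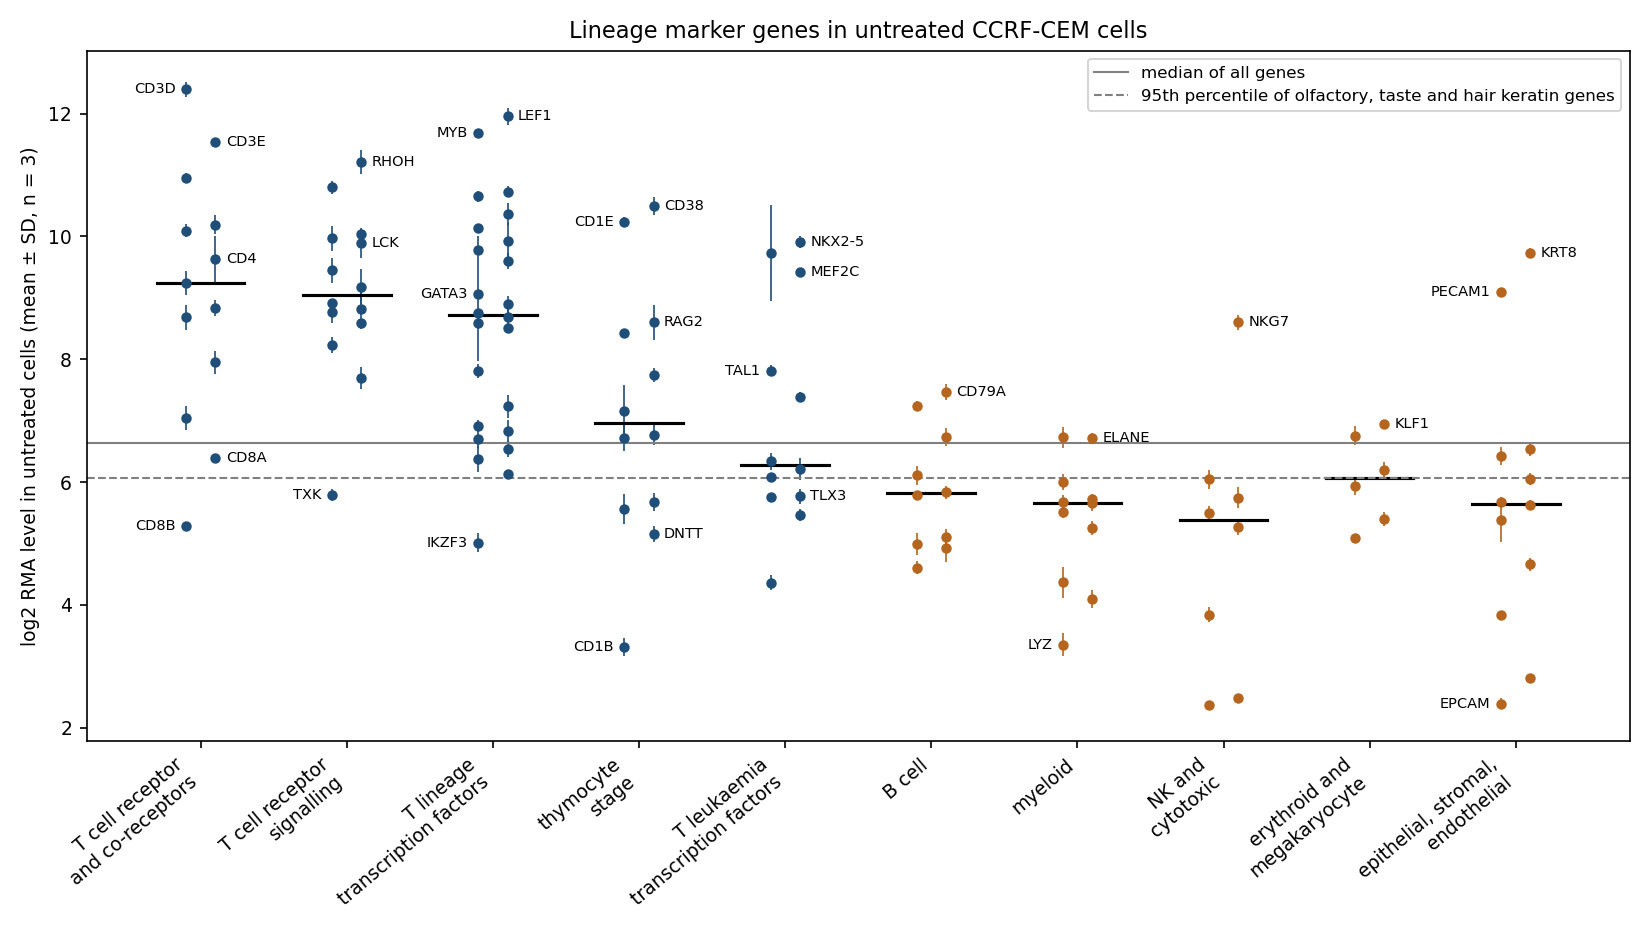
Mean log2 RMA level ± SD of lineage marker genes on the 3 untreated arrays. Each point is a gene, blue for T lineage lists and brown for other lineages, black bars are list medians, the solid line is the median of all genes (6.63) and the dashed line the 95th percentile of olfactory, taste and hair keratin-associated genes (6.07). The medians of the T cell receptor, signalling and transcription factor lists lie between 8.72 and 9.25. Those of the thymocyte stage and T leukaemia factor lists are lower, at 6.96 and 6.28. The medians of the lists of other lineages lie between 5.38 and 6.06.

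Markers of other lineages were mostly near or below the silent mark. The B cell list had a median of 5.82, with 4 of 10 measured genes above 6.07: CD79A (7.46 ± 0.13), BLK (7.24 ± 0.08), CD79B (6.73 ± 0.14) and MS4A1 (6.11 ± 0.15). Its defining factors PAX5 and EBF1 read 5.84 ± 0.11 and 5.11 ± 0.13. Of 11 myeloid genes, AZU1 and ELANE, granule proteins of neutrophil precursors, passed the mark, at 6.73 ± 0.17 and 6.71 ± 0.08, while MPO, the peroxidase of the same granules, read 5.68 ± 0.12. The list of erythroid and megakaryocyte genes had 3 of 6 above it, led by KLF1 at 6.94 ± 0.06, with beta globin (HBB) at 5.08 ± 0.05. Among 8 natural killer and cytotoxic genes the granule membrane protein NKG7 alone was above it, at 8.60 ± 0.13, with NCAM1 (CD56) at 5.27 ± 0.13. The epithelial, stromal and endothelial list had 4 of 12 above it. KRT8, a keratin of simple epithelia, stood at 9.73 ± 0.08 without its partner KRT18 (5.38 ± 0.35), and EPCAM was at 2.39 ± 0.09. PECAM1 (CD31), which endothelial cells share with many blood cells, read 9.10 ± 0.04. In RNA from a whole culture, fewer cells that make a transcript and less of it per cell cannot be told apart.

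Transcription factors of the T lineage stood high. Of 24 measured members, 23 lay above the silent mark, with a median of 8.72. LEF1, the DNA-binding partner of beta-catenin, read 11.92, 11.84 and 12.11, and MYB, a factor of progenitors, 11.71, 11.67 and 11.70. TOX (10.73 ± 0.09), ETS1 (10.65 ± 0.09) and RUNX1 (10.13 ± 0.02) followed. GATA3 (9.06 ± 0.07), BCL11B (8.59 ± 0.02) and NOTCH1 (8.51 ± 0.07) belong to the genes that commit progenitors to the T lineage, and the NOTCH1 target HES1 read 8.70 ± 0.25. The exception at the low end was IKZF3, a factor of mature lymphocytes, at 5.01 ± 0.15.

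Oncogenic factors of T cell leukaemia are usually silent in normal thymocytes, and a given leukaemia tends to carry 1 or a few. NKX2-5, a cardiac homeobox factor known to be activated in this line by a translocation that joins it to the BCL11B region, was the highest of the 12 measured members, with 9.97, 9.79 and 9.95. MEF2C, a partner of cardiac homeobox factors and an oncogene of immature T leukaemia, read 9.43, 9.40 and 9.42. TAL1, a helix-loop-helix oncogene of T leukaemia, stood at 7.82 ± 0.08, and BCL11A at 7.39 ± 0.07. LMO2 (6.34 ± 0.14) and LYL1 (6.22 ± 0.18) were just above the silent mark, and TLX3, OLIG2, LMO1 and TAL2 were below it, from 4.36 to 5.77. MYC, a driver of growth and a NOTCH1 target, read 10.36, 9.96 and 8.86 and had the largest SD of the list, 0.78.

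Surface receptors and presentation genes completed the profile. The chemokine receptors CXCR4 (11.29 ± 0.29) and CCR4 (10.33 ± 0.07) were high, and the interleukin 2 receptor alpha chain IL2RA, a mark of activated T cells, was at 5.28 ± 0.18. Beta-2 microglobulin (B2M) read 10.24 ± 0.04 and TAPBP, which loads class I MHC molecules, 10.12 ± 0.01. HLA-DRA, a class II chain, was at 4.25 ± 0.12. Enzymes that handle purine nucleosides, the class to which AB61 and tubercidin belong, were led by the phosphorylase PNP at 11.47 ± 0.07, with adenosine deaminase (ADA) at 9.92 ± 0.15 and adenosine kinase (ADK) at 9.64 ± 0.20. The nucleoside transporter SLC29A1 read 9.33, 8.83 and 8.57, an SD of 0.39. The concentrative transporter SLC28A3 was at 4.24, and NT5E (CD73), which makes adenosine outside the cell, was at 3.48 ± 0.06, both under the silent mark.

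Growth genes were high and steady as a list. Of 28 measured proliferation genes, 21 lay above the 90th percentile of all genes, with a list median of 10.16 and a median SD of 0.11. STMN1, a microtubule regulator, led at 11.64 ± 0.13, followed by CCNB2 (11.28 ± 0.03) and thymidylate synthase (TYMS, 11.20 ± 0.05). The lowest members were the D cyclins CCND1, at 6.34 ± 0.20, and CCND2, at 4.30 ± 0.07. The cyclin-dependent kinase inhibitor CDKN2A, a gene often deleted in T cell leukaemia, read 5.51 ± 0.06, under the silent mark. Of the stress lists, the endoplasmic reticulum chaperone genes had a median of 9.02, with CALR, a calcium-binding chaperone, at 12.10 ± 0.03, and the cytosolic heat shock genes a median of 8.54.

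Variation among the 3 untreated cultures was small for most genes. The median SD was 0.13 and the 95th percentile 0.35. The highest and lowest of the 3 arrays lay less than 0.5 apart for 12360 genes (86.8%), and 2-fold or more apart for 138 genes (0.97%). The median SD was 0.11 in the dimmest 10% of genes and 0.15 in the brightest 10%. Yet the 273 olfactory receptor, taste receptor and hair keratin-associated genes had a median SD of 0.23. Of these 273, 59 lay above the 95th percentile of SD. Within the groups treated with AB61, actinomycin D and tubercidin the median SD of all genes was 0.19, 0.11 and 0.13.

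**Figure D2:**
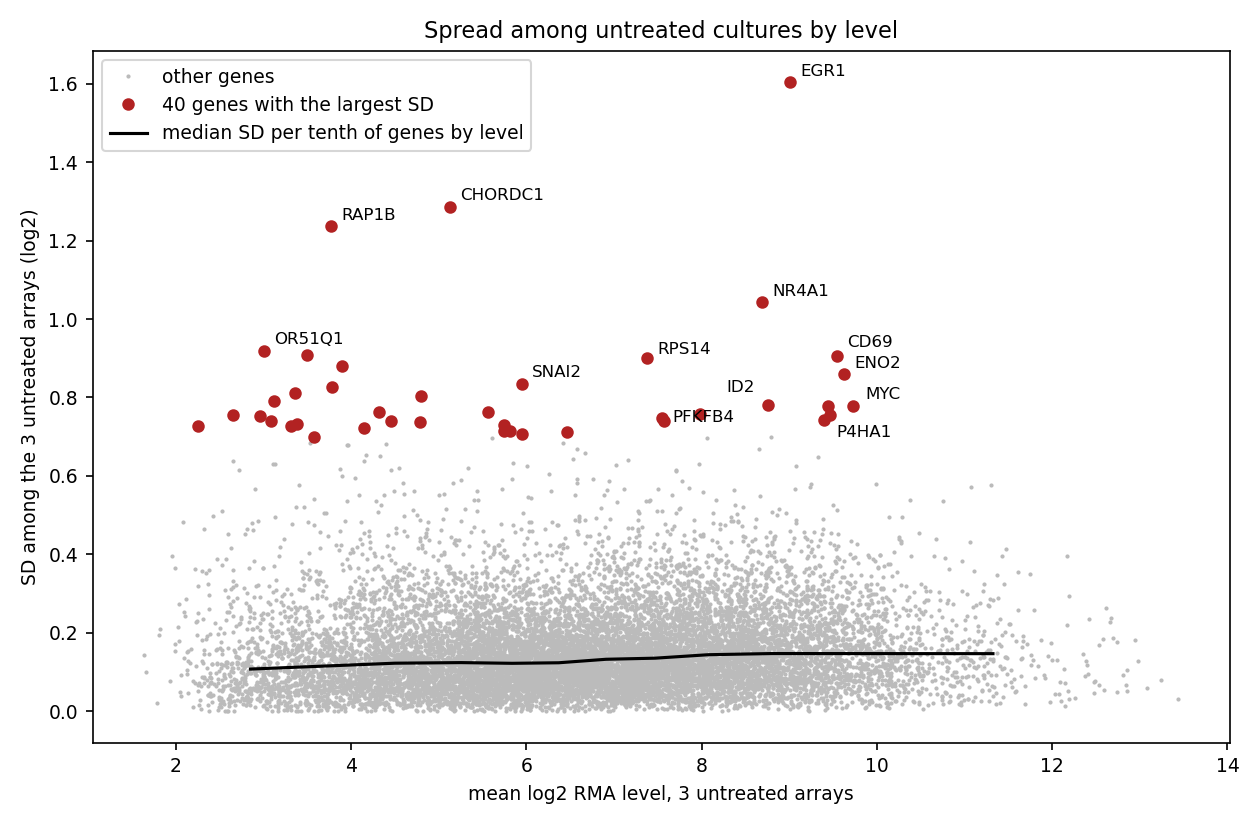
SD among the 3 untreated arrays against mean log2 RMA level, 1 point a gene, with the 40 genes of largest SD in red and the median SD of genes in 10 bins of level as a line. Of the 40, 27 lie below the median level of 6.63, and EGR1, at an SD of 1.60, stands above all other genes.

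The 40 genes with the largest SD were taken as the variable set. The last of them, the interferon gene IFNB1, had an SD of 0.7004, and the first outside, the transcriptional repressor BHLHE40, 0.6995. The untreated values chose these genes, so their spread is given as a description, without a test. Of the 40, 26 had a mean under the silent mark, among them 6 olfactory receptor, taste receptor or hair keratin-associated genes such as OR51Q1 (2.73, 4.03 and 2.26). At such levels the values hold little signal, and whether these differences reflect RNA was not tested. The other 14 included CD69, MYC, ID2 and several early response and hypoxia genes, and 13 of these were above the median gene. Replicate 3 was the highest or the lowest array in all 13, and in 72.9% of all genes.

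EGR1, an immediate early zinc finger factor, was the most variable gene. It read 7.49, 8.85 and 10.69 on untreated replicates 1, 2 and 3, a 9.16-fold range. Replicate 3 was the highest and replicate 1 the lowest. The 9 treated arrays lay between 6.78 and 7.43, with a median of 7.24, so that even the lowest untreated array was above all of them. NR4A1, a nuclear receptor induced within an hour of T cell receptor signals, had the same order at 7.72, 8.57 and 9.79, with the treated arrays between 6.55 and 7.13. EGR3, a relative of EGR1, read 5.74, 6.49 and 7.17, partly under the silent mark, and its treated arrays, from 5.38 to 5.87, overlapped replicate 1.

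Promoter sequences of EGR1, ENO2 and P4HA1 are shown because EGR1 led the ranking and the other two are known targets of hypoxia-inducible factors within the set. They are the 250 bases before the RefSeq start on GRCh38.p14, read 5′ to 3′ in the direction of the gene, at chr5:138465229-138465478 (plus strand), chr12:6914330-6914579 (plus strand) and chr10:73096867-73097116 (minus strand). Capitals mark matches on either strand to the core of the hypoxia response element (ACGTG), the AP-1 site (TGANTCA) and the CArG box, to which serum response factor binds.
EGR1: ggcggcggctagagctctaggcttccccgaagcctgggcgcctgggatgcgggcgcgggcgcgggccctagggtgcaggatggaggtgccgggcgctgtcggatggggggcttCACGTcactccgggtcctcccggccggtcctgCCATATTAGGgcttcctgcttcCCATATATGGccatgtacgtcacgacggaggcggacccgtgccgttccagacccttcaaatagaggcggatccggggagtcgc
ENO2: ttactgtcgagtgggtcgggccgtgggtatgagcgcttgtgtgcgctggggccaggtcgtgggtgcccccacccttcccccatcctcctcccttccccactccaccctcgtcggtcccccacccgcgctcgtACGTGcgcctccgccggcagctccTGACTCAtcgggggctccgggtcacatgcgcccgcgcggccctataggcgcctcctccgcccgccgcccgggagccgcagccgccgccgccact
P4HA1: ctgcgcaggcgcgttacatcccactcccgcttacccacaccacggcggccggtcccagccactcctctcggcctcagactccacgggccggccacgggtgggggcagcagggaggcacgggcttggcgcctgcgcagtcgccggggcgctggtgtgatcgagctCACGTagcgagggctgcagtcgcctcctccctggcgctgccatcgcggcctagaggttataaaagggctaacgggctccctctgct
EGR1 held 2 CArG boxes, at 105 to 96 and 83 to 74 bases before the start, and 1 ACGTG core. ENO2 held 1 ACGTG core and 1 AP-1 site, and P4HA1 1 ACGTG core. The windows of NR4A1, at chr12:52022582-52022831, and of PFKFB4 held none of these motifs. For each gene 1 window was searched, so any other start of a gene was not covered. Among 11385 promoters of measured genes, 1.2% held a CArG box, 21.0% an ACGTG core and 4.74% an AP-1 site. In the variable set, 33 genes had a promoter in the table, of which 3 held a CArG box (EGR1 and the dim genes FAM223A and SPINT3) and 10 (30.3%) an ACGTG core. A match describes these letters only, and binding was not measured.

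The immediate early genes varied as a list. Of 25 measured members, 9 had an SD above the 95th percentile of all genes, and the list's median SD was 0.29. Replicate 3 was above replicate 1 in 22 of 25, with a median difference of 0.57, against 39.5% of all genes and a median of −0.04. FOSB, an AP-1 subunit, read 7.04, 7.85 and 8.24. JUNB, another AP-1 subunit, read 8.21, 8.48 and 9.16, and ZFP36, which destabilises messages with AU-rich elements, 6.94, 7.48 and 8.07. Not all members did so: SRF, the factor that binds CArG boxes, read 10.18, 10.45 and 10.01, and JUND, an AP-1 subunit, 8.42, 8.75 and 8.42. Ranked by likeness to EGR1 over the 12 arrays, the nearest genes were NEDD4L, a ubiquitin ligase (Pearson r = 0.978), FOS, the partner of JUN in AP-1 (0.977), PFKFB4 (0.974), ACSS2 (0.968) and PPP2R5B (0.968). All 12 points belong to 4 groups, and the untreated arrays are the high ones, so these values describe the group difference as much as the spread within it.

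Genes of the glycolysis and hypoxia list also stood in the variable set. ENO2, the neuronal enolase, read 8.85, 9.46 and 10.55, and its treated arrays ran from 7.91 to 8.84. PFKFB4, which sets the level of an activator of glycolysis, read 6.85, 7.45 and 8.34 against 6.05 to 6.52 in the treated arrays. In both, replicate 3 was the highest and the untreated and treated arrays did not overlap. P4HA1, a prolyl hydroxylase subunit for collagen, was in the variable set but not on this list. It read 8.75, 9.24 and 10.21, and its treated arrays, from 8.04 to 10.08, overlapped these values.

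Of 24 measured genes of the glycolysis and hypoxia list, replicate 3 was above replicate 1 in 21 and the highest array in 18, with a median difference of 0.23. Among all genes replicate 3 was above replicate 1 in 39.5% and the highest array in 23.3%, with a median difference of −0.04. BNIP3, a mitophagy receptor, read 11.01, 11.61 and 11.80, and SLC2A1, the main glucose transporter, 10.01, 9.98 and 10.77. The highest member, LDHA, was flat, and VEGFA, the vascular growth factor, varied little at 7.25, 7.28 and 7.42.

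Among the remaining bright genes of the set, CD69, an early activation marker that keeps lymphocytes in tissue, read 8.52, 9.88 and 10.24, replicate 1 standing apart. ID2, an inhibitor of helix-loop-helix factors, read 8.04, 8.63 and 9.59, and NFIL3, a basic leucine zipper factor of lymphocytes, 7.04, 7.27 and 8.42. Genes lowest in replicate 3 were MYC, the ribosomal protein RPS14 (8.21, 7.48 and 6.42), the ribosome assembly factor RPF2 (9.93, 9.87 and 8.59), GTF3C6, a subunit of RNA polymerase III factor TFIIIC (9.98, 9.80 and 8.55), and SEC11C, a signal peptidase subunit (8.42, 8.42 and 7.11). In GTF3C6, SEC11C and RPF2 replicates 1 and 2 lay close together and replicate 3 stood apart.

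The lists of ribosomal protein and respiratory chain genes had lower medians in replicate 3. For 31 ribosomal protein genes the median difference of replicate 3 from replicate 1 was −0.34, with 4 of 31 above, and 10 had an SD beyond the 95th percentile of all genes. Replicate 3 was the lowest array in 23 of them, and in 49.7% of all genes. The median level of the 31 was 7.41, and 24 of the 31 lay above the silent mark. Bright ribosomal protein genes differed unequally: RPL8, the highest of the list, by −0.07 and RPL9, with a mean of 9.99, by −0.77. For 61 nuclear genes of the respiratory chain the median difference was −0.26, with 8 of 61 above. Proliferation genes differed by a median of 0.02, T cell receptor genes by −0.0022, receptor signalling genes by −0.07 and T lineage factors by 0.0013. For thymocyte stage genes the median difference was −0.22, with 1 of 12 above, and replicate 3 was the lowest array in 9. In the treated arrays the mean of number 3 less that of number 1 had a median of 0.07 for immediate early genes, 0.07 for glycolysis and hypoxia, −0.07 for ribosomal proteins, −0.16 for the respiratory chain and −0.08 for all genes. Number 3 was above number 1 there in 16 of 25 immediate early genes and 15 of 24 glycolysis and hypoxia genes, against 34.2% of all genes. The spread of RNA quality or cell density between cultures was not among the labels, and the part of either in these shifts was not tested.

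**Figure D3:**
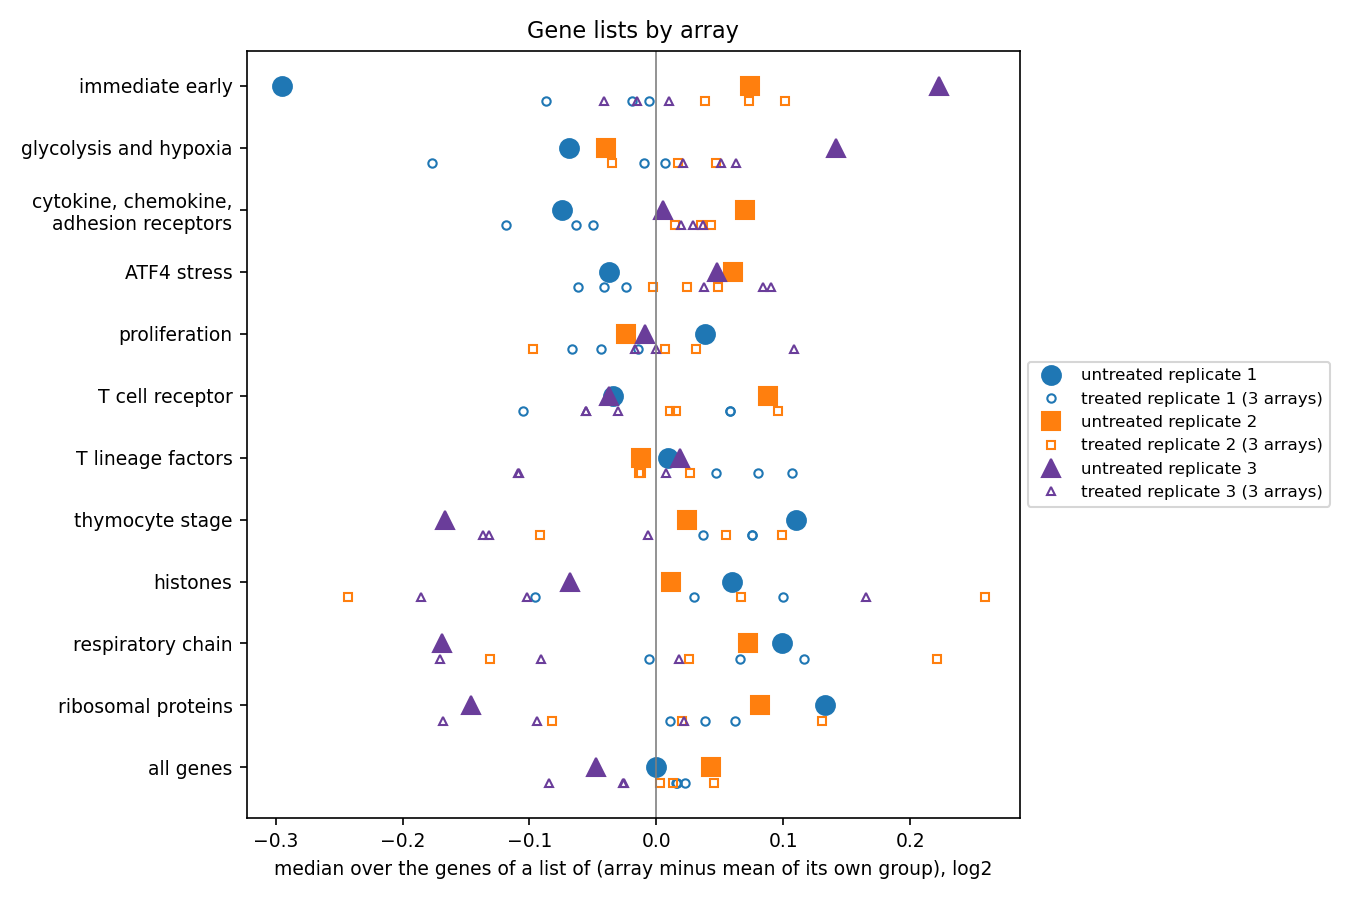
Median over the genes of each list of the deviation of an array from the mean of its own group (log2), large symbols for the 3 untreated arrays and small open symbols for the 9 treated arrays, coloured by replicate number. Untreated replicates 1 and 3 stand at opposite ends for immediate early genes (−0.29 and 0.22) and for ribosomal proteins (0.13 and −0.15).

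Whether a gene's level differed between replicate numbers was tested in the 9 treated arrays, which the ranking had not used, with limma's F-test on number with agent as a covariate. In these arrays 42 of 14232 genes (0.295%) differed at an adjusted p under 0.05, 36 of them higher in number 3 than in number 1 and 6 lower. Of the 40 variable genes, 3 passed, and 18 had an unadjusted p under 0.05, against 15.6% of all genes. The 3 were P4HA1, CD69 and ACOT12. P4HA1 had treated means of 8.26, 9.11 and 10.04 for numbers 1, 2 and 3, so that number 3 exceeded number 1 by 1.78 ± 0.14 (SE), a 3.43-fold difference (adjusted p = 0.00828). CD69 had 7.83, 8.64 and 9.13, a difference of 1.30 ± 0.11 (adjusted p = 0.00828). ACOT12, a liver acyl-CoA thioesterase with a mean under the silent mark, had 5.22, 5.59 and 6.01 (adjusted p = 0.0486) and did not pass without any 1 of the 9 arrays (adjusted p from 0.0548 to 0.329).

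These calls rested on few arrays. No gene passed without AB61 replicate 1, without actinomycin D replicate 1 or without actinomycin D replicate 3, where limma left 1332, 1250 and 1337 genes at an unadjusted p under 0.05. The count was 11, 23 and 16 without AB61 replicate 3, actinomycin D replicate 2 and tubercidin replicate 3. P4HA1 and CD69 kept differences of at least 1.68 and 1.23 in each of these fits, and their largest adjusted p was 0.0675. With each array centred on its median gene, 32 genes were higher and 1 lower.

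The order of the treated arrays resembled that of the untreated ones. In 33 of the 40 variable genes, the treated arrays of the number that was highest in the untreated cultures had a higher mean than those of the number that was lowest there, as in 71.4% of all genes. Among the 13 genes above the median level the count was 12. Of the 42 genes called in the treated arrays, 39 differed in the same direction between untreated replicates 3 and 1, as 61.6% of all genes did. Of these 42, 20 had an untreated SD above the 95th percentile, where 5.0% of all genes lie by construction. MYC had treated means of 10.34, 9.93 and 9.50 and did not pass (adjusted p = 0.0778), though its order was that of the untreated arrays. EGR1 behaved otherwise, its treated means of 6.98, 7.18 and 7.31 differing by 0.33 between numbers 3 and 1, where the untreated arrays differed by 3.20 (adjusted p = 0.385). Whether the treated and untreated differences were unequal was not tested, since the untreated ones chose the genes.

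Of the other genes that passed by number, BNIP3, ALDOC, SGK1 and TNFAIP3 were picked after their values were seen. BNIP3 had treated means of 10.08, 10.37 and 11.32 (difference 1.24 ± 0.14, adjusted p = 0.0149), and ALDOC, the brain aldolase, 7.94, 8.54 and 8.80 (0.86 ± 0.09, adjusted p = 0.0149). SGK1, a serum and glucocorticoid-induced kinase, had 6.70, 7.76 and 7.97 against 7.27, 8.14 and 8.50 in the untreated cultures (adjusted p = 0.00828). TNFAIP3, an NF-kB target that restrains NF-kB, had 8.49, 8.90 and 9.22 against 8.68, 9.34 and 9.97 (adjusted p = 0.0421). NRN1, a membrane-anchored neuronal growth protein, had 9.49, 10.08 and 10.64 against 10.43, 11.27 and 11.52 (adjusted p = 0.00828). All of these were lowest in number 1 in both treated and untreated cultures. SGK1 and NRN1 were lost in the same 3 fits as P4HA1 and CD69. BNIP3 was lost without 6 of the 9 arrays, ALDOC without 5 and TNFAIP3 without 8. The genes with the smallest adjusted p included PLAAT5, TCP11L2, SYAP1, TGFBR3 and CEMIP2 among those higher in number 3. Those lower were MROH9, NRROS, ITPRIPL1, LARP4B, LRRC18 and MFNG, the last a modifier of NOTCH receptors. TGFBR3, a co-receptor for TGF-beta, was an exception to the shared order, with treated means of 8.15, 8.90 and 9.57 but untreated values of 8.65, 9.19 and 8.51. Of the lists, 2 of 24 glycolysis and hypoxia genes passed by number and none of the 25 immediate early genes did, against 0.295% of all genes. Of the 25, 7 had an unadjusted p under 0.05 in the same limma fit, against 15.6% of all genes.

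**Figure D4:**
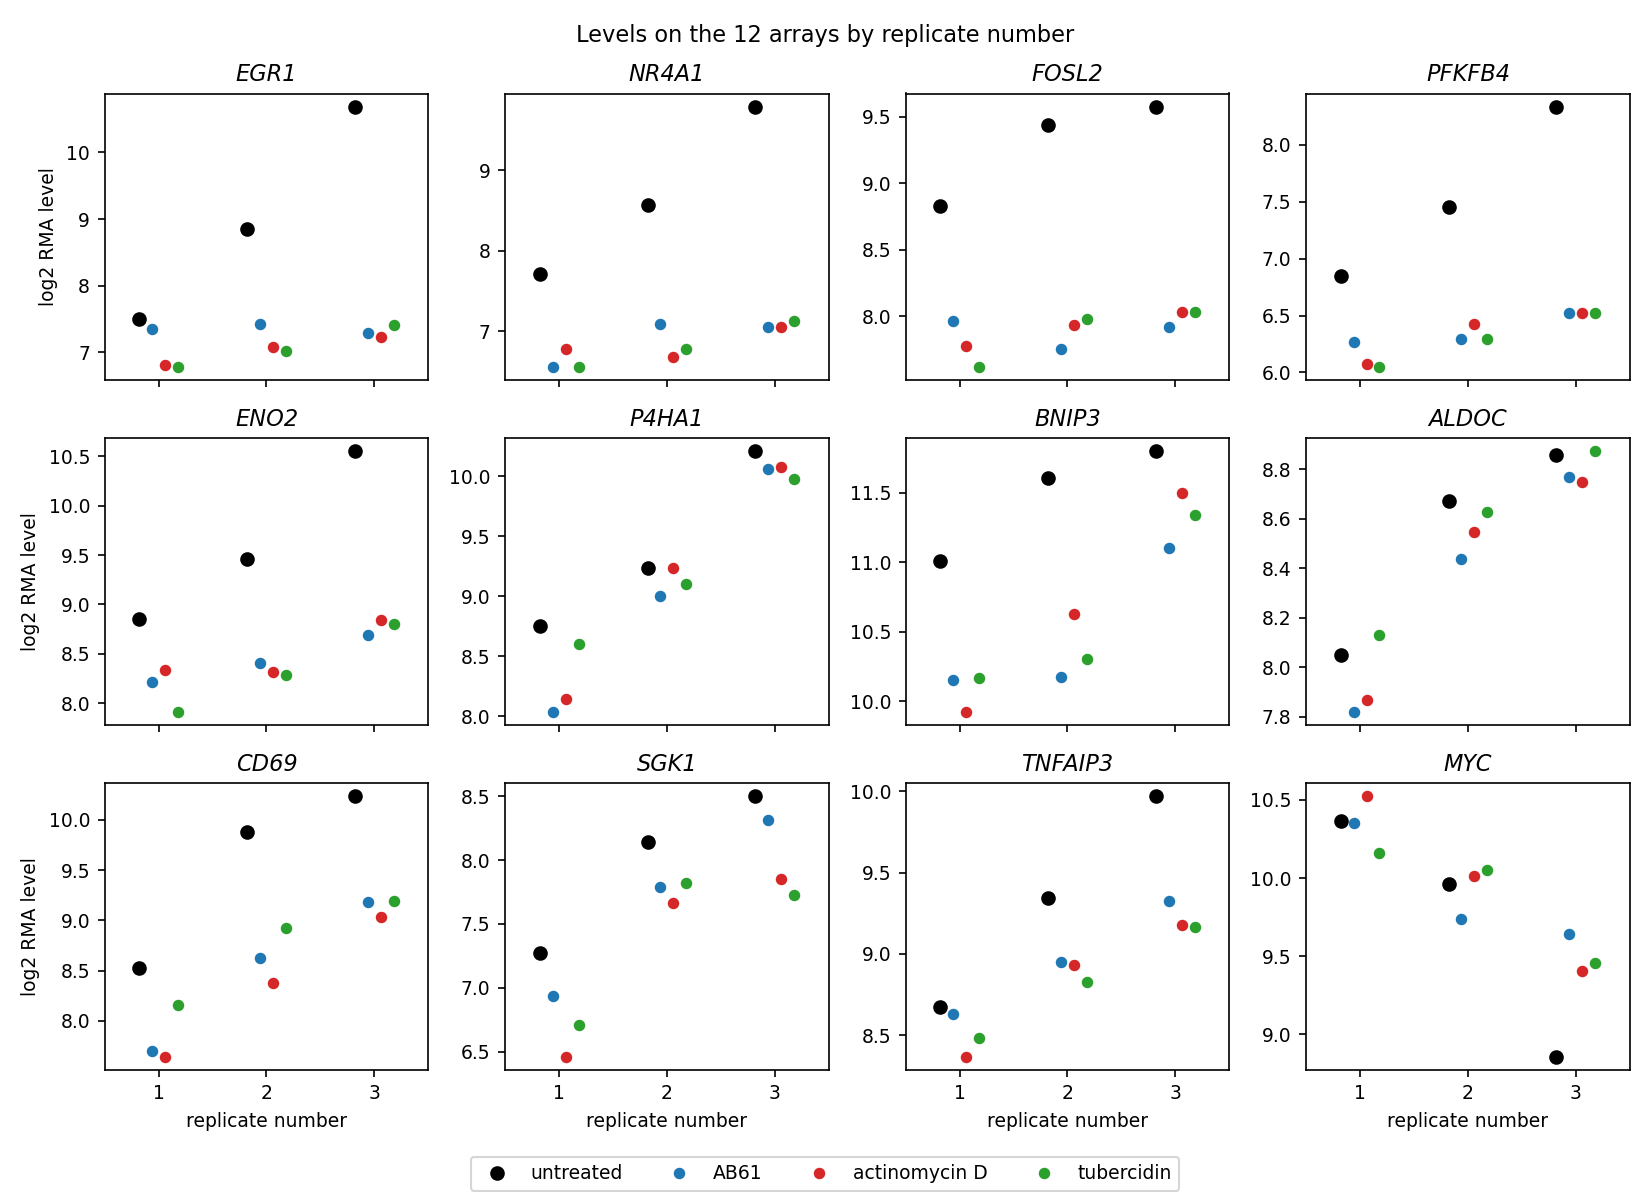
Log2 RMA levels of 12 genes on all 12 arrays by replicate number, untreated arrays in black and treated arrays coloured by agent. For EGR1, NR4A1, FOSL2, PFKFB4 and ENO2 the untreated arrays lie above all 9 treated arrays, whereas for P4HA1 and ALDOC they overlap and arrays of number 1 are the lowest in both.

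**Figure D5:**
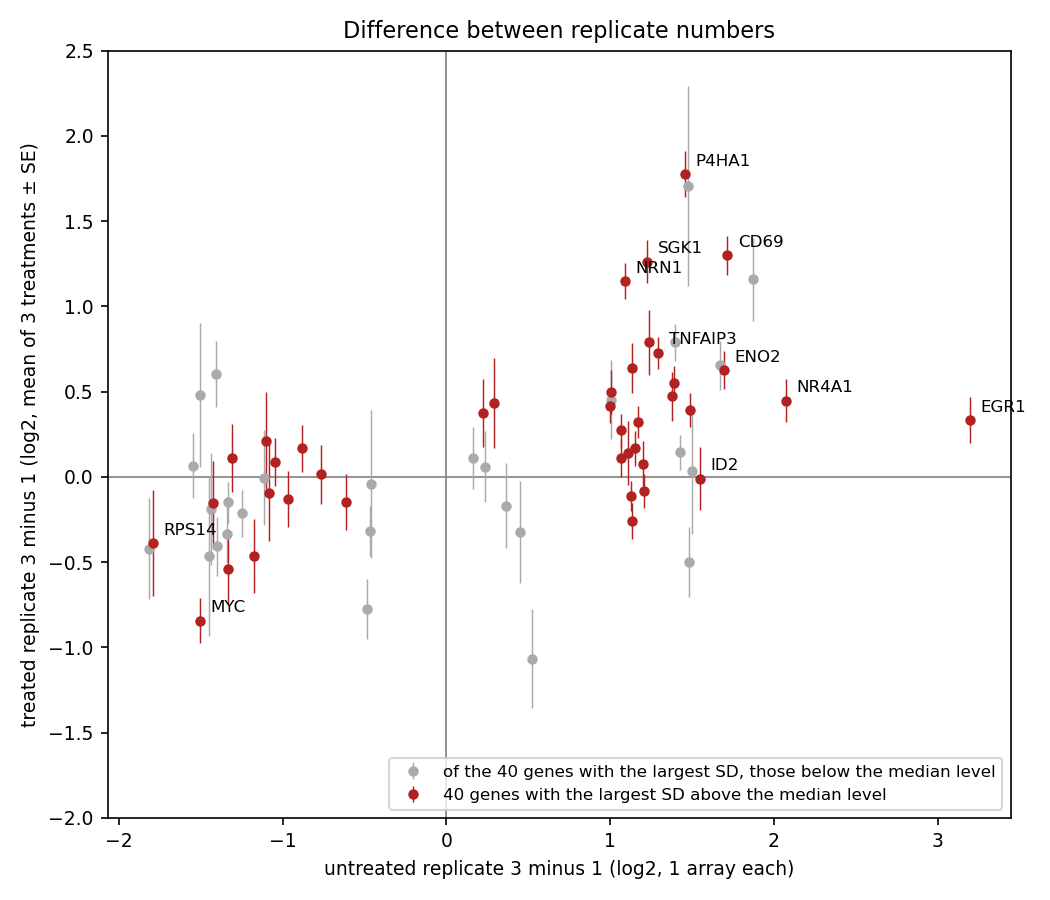
Difference between replicate numbers 3 and 1 in the treated arrays (mean of the 3 agents ± SE from limma) against the same difference in the untreated arrays (1 array each), for the 40 most variable genes above the median level (red) and those of the variable set below it (grey). P4HA1 (1.78) and CD69 (1.30) stand high on both axes, and EGR1 lies far right at a treated difference of 0.33.

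Treated and untreated cultures were set against each other to see which genes of the untreated state stood elsewhere after 3 h with any agent. The mean of the 3 treated groups differed from the untreated group in 149 genes (1.05%) in limma's test over the 12 arrays, 86 higher (0.604%) and 63 lower (0.443%) after treatment. When the fit held a block for replicate number, it called 517 genes (3.63%), of which 285 were higher and 232 (1.63%) lower after treatment. The count of 149, from the fit without the block, fell to 6 without untreated replicate 2 and to 8 without untreated replicate 3. It was 127 without untreated replicate 1. In these fits 1329, 1738 and 1515 genes had an unadjusted p under 0.05 in limma's test, against 1853 with all arrays. In the fit without the block, the number passing after adjustment thus depended on untreated replicates 2 and 3. All fits of this comparison that left out an array, here and below, held no block. The blocked fit was not repeated with arrays left out. Of the treated arrays, leaving out 1 gave counts from 33, without actinomycin D replicate 2, to 263, without AB61 replicate 3. The remaining counts more than 1.5 times away were 62 (AB61 replicate 2), 89 and 76 (actinomycin D replicates 1 and 3), and 50 and 58 (tubercidin replicates 1 and 3). A vehicle effect and an effect of the agents cannot be told apart here.

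Of the 40 variable genes, 2 passed (1.05% of all genes did), both lower after treatment. The spread that chose them enters this fit and enlarges their error. NR4A1 differed by −1.84 ± 0.31 (SE; adjusted p = 0.0186, and 0.00347 with the replicate block), with all 3 untreated arrays above all 9 treated ones. PFKFB4 differed by −1.22 ± 0.23 (adjusted p = 0.0307, and 0.00375 with the block). Neither passed without untreated replicate 2 or 3, where the adjusted p was 0.111 and 0.0647 for NR4A1 and 0.133 and 0.106 for PFKFB4. PFKFB4 was also lost without AB61 replicate 2 (0.0611), actinomycin D replicate 2 (0.0668) or tubercidin replicate 1 (0.0573).

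With the block, 7 of the 40 passed, against 3.63% of all genes. The untreated values that chose the 40 enter this fit too, so the 2 shares are not compared. EGR1 (−1.86 ± 0.44, adjusted p = 0.0647 without and 0.0233 with the block), ENO2 (0.0632 and 0.00399), EGR3 (0.0665 and 0.0237) and CD69 (0.263 and 0.00179) were lower after treatment. RAP1B, a small GTPase under the silent mark at 3.30, 2.84 and 5.17, was higher (0.362 without and 0.047 with the block). In 4 of the 40 genes, EGR1, NR4A1, ENO2 and PFKFB4, the untreated arrays lay wholly above the treated ones, and in none wholly below. The shares of all genes were 1.9% and 2.63%, but the untreated values that chose the 40 genes enter this count, so nothing is read from it.

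CHRNA6, FOSL2 and VEGFA differed between treated and untreated cultures in every fit that left out 1 of the 12 arrays. CHRNA6, a nicotinic receptor subunit, read 6.29, 6.30 and 6.15 untreated and from 7.10 to 7.59 after treatment (adjusted p = 0.000667). VEGFA was lower after treatment by 0.71 on the log2 scale, with treated arrays from 6.45 to 6.83 (adjusted p = 0.00351). FOSL2, an AP-1 subunit, read 8.83, 9.44 and 9.58 against 7.62 to 8.03 (−1.39 ± 0.14, adjusted p = 0.0019). ATF3, a stress-induced member of the same family, read 7.58, 7.94 and 8.08 against 6.69 to 7.33 (adjusted p = 0.0112), and was lost without untreated replicate 2 (0.0902) or 3 (0.0861). Of 25 immediate early genes 3 were lower after treatment and none higher, against 0.443% of all genes lower and 0.604% higher. With the block 6 of the 25 were lower, against 1.63% of all genes. Of 24 glycolysis and hypoxia genes 3 were lower, and 7 with the block, beside the same shares of all genes.

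Among the T lineage lists, 1 of 14 signalling genes, 1 of 12 thymocyte stage genes and 1 of 24 transcription factors passed, against 1.05% of all genes. Of 13 T cell receptor genes none did in limma's test, with 3 at an unadjusted p under 0.05 (13.0% of all genes). With the block 2 of the 13, CD2 and CD3G, were higher after treatment (adjusted p = 0.00832 and 0.038). It also called 2 thymocyte stage genes and 2 transcription factors, all higher, and 2 signalling genes higher and 3 lower. Of all 14232 genes it called 285 higher and 232 lower. IL7R rose from untreated values of 7.64, 7.01 and 6.82 by 1.05 ± 0.18 (adjusted p = 0.0197), and RUNX2, a relative of RUNX1, by 0.51 ± 0.09 (adjusted p = 0.0186). PTPN6, a phosphatase that damps receptor signals, fell by 0.70 on the log2 scale (adjusted p = 0.0311), and CXCR4 by 0.72 (adjusted p = 0.0214). None of these 4 passed without untreated replicate 2, untreated replicate 3 or actinomycin D replicate 2, where their adjusted p lay between 0.051 and 0.145. RUNX2 and PTPN6 were also lost without untreated replicate 1 (0.0569 and 0.079). CXCR4 was also lost without tubercidin replicate 1 (0.0504), as was PTPN6 (0.0577), which failed without AB61 replicate 2 (0.0564) and tubercidin replicate 3 (0.0542) too.

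At the other end of the ranking, the 10 steadiest genes above the median level included PITRM1, a mitochondrial peptidase, at 9.23 on every untreated array, TP53BP1, a DNA repair scaffold, at 8.01, and SUN1, a nuclear envelope protein, at 8.23. Their values were identical to 8 decimals, as were those of 30 genes in all. A further 398 genes had identical values on exactly 2 of the 3 arrays. RMA summarises a probe set from medians, which can give ties, so an SD of 0 was not read as a measure of how steady a transcript was.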

How the data were processed

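RNA of the 12 CCRF-CEM cultures was hybridised to whole-transcript Affymetrix arrays, which give no read depth, so precision is limited by how many arrays there were. The deposited values are on the log2 scale, background-corrected, quantile-normalised and summarised per probe set by the authors with RMA, and oligo and limma are named per the submitters' processing notes. Versions of these tools are not given in the sources used here. For the untreated group, the authors' deposited means of the untreated group equalled the mean of the 3 arrays.

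Of 22011 probe sets, 14432 carried 1 gene symbol, 2408 several, and 5171 were not listed in the annotation. The 1-symbol probe sets gave 14232 genes, the brightest over the untreated arrays standing for each of 197 genes with several. Tests used limma 3.58.1 in R 4.3.3 on the log2 values, with Benjamini-Hochberg adjustment over all genes and a threshold of 0.05. One was an F-test on replicate number in the 9 treated arrays with agent as a covariate, and the other set the mean of the 3 treated groups against the untreated group over 12 arrays. Both were checked on simulated data in which the errors of the arrays were independent, so a shared deviation of same-numbered arrays was not covered. Untreated and treated arrays of the same number deviated together from their group means. The correlation of an untreated array with the mean treated deviation of its own number was 0.201, 0.452 and 0.412. With the same-numbered array of each single agent it was above 0.1 except for 2 values (0.085 and 0.047). The replicate block is therefore given beside results it changes.

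Genes were named by rule: the 25 highest, the 40 most variable, the 10 steadiest above the median, lists of T lineage and immediate early genes in full, the extremes of other lists, the 5 most like EGR1, and up to 8 a direction in each test. PAX5, EBF1, MPO, NCAM1, BNIP3, ALDOC, SGK1, TNFAIP3 and BHLHE40 lie outside it and were named after their values were seen. Members and lists were chosen with earlier results of these data known. Alternatives were other scalings, a filter on dim genes, other variance models, another choice of probe set, the block, and leaving out arrays or groups.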

Additional observations from a re-analysis of the deposited data

How the results depend on the processing

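With 1 array left out, the count of genes that differed by replicate number in treated cultures ran from 0 to 46, the number of the 40 variable genes among them from 0 to 3, and the count between treated and untreated cultures from 6 to 263. Of the 40 variable genes 15 to 30 stayed in the set without 1 untreated array, and of the 25 highest genes 23 to 25.

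By replicate number, repeated quantile normalisation gave 24 genes, the genes above the median level 127, array weights 2352 and all 12 arrays in the fit 307. Without AB61, actinomycin D or tubercidin the counts were 0, 0 and 3, with 1544, 876 and 2678 genes at an unadjusted p under 0.05 in limma's test. Of the 40 variable genes, 19 passed with array weights, 8 with all 12 arrays, and 0, 0 and 1 without the 3 agents. Between treated and untreated cultures, centring each array on its median gave 75 genes (44 higher, 31 lower), array weights 1092 and the replicate block 517. Keeping genes above the median level turned the split to 75 higher and 82 lower. That filter left 13 of the 40 variable genes, by its construction. For the other counts that moved, the cause was not tested.

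List medians kept to within the replicate spread in 138 of 145 recomputations. Of 357 recomputed differences of named genes by number, 187 stayed on their side of the threshold and 170 did not pass; of 414 between treated and untreated cultures, 368 stayed and 46 did not pass. None changed direction. Signals near those of the silent genes limit what can be said of the dimmer variable genes.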

Other observations

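Of the 40 most variable genes above the median level, 35 had a promoter in the table, and 17 of these (48.6%) held an ACGTG core within 250 bases before the start. Among all genes above the median level the share was 24.7%, of 5965 promoters. The core was present in 10 of 24 promoters of genes highest in untreated replicate 3 (41.7%) and in 6 of 10 of those lowest there (60.0%). These shares were noticed in the data and are given without a test.

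Identical values on at least 2 of the 12 arrays occurred in 4009 genes (28.2%).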
